A study of Mus musculus with 6 samples.

Results

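Genes of the vessel wall were examined in the mRNA-Seq of left ventricles (LVs) of mice with an *Lztr1* mutation. The group consisted of 10 genes among the 56923 listed, chosen by name: 4 contractile smooth muscle genes (*Acta2*, *Tagln*, *Myh11*, and *Cnn1*) and 6 pericyte genes (*Pdgfrb*, *Rgs5*, *Kcnj8*, *Abcc9*, *Cspg4*, and *Notch3*). The LVs of 3 *Lztr1* R409C/+ (Mut) mice, which are heterozygous for a knock-in substitution that corresponds to a human Noonan syndrome mutation, were compared with those of 3 WT mice. The mutant line was made with CRISPR/Cas9 and backcrossed to C57BL/6J. All 6 mice were 12 weeks of age, with no treatment stated, and were perfused with phosphate-buffered saline before 1 library was made from each. The methods state that male mice were used to assess the phenotypes, and the sample labels give no sex. The mice are called WT1 to WT3 and Mut1 to Mut3 by replicate number, and all values per mouse follow that order. The substitution is carried in the germ line, so vessel wall cells, cardiomyocytes, and all other cells of the LV carry it alike.

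Smooth muscle cells ring the arteries and arterioles of the heart and set their diameter. They contract through smooth muscle actin and a smooth muscle myosin, with transgelin and calponin bound to the actin filaments. Pericytes lie along the capillaries, which they stabilize, and they are recruited through PDGF-B from the endothelium acting on its receptor. Both cell types are mural cells, and both are a small part of the ventricle beside the cardiomyocytes. In bulk tissue, fewer cells of a type and less RNA per cell cannot be told apart.

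2 of the 4 contractile genes, *Myh11* and *Tagln*, were measured at lower levels in all 3 mutant mice than in any WT mouse, whereas *Acta2*, *Cnn1*, and the 6 pericyte genes overlapped between the genotypes. The fitted level in mutant mice was 0.61 of that in WT mice for *Myh11* and 0.64 for *Tagln*. Neither passed after adjustment over all genes. After Benjamini-Hochberg adjustment, 0 of the 10 genes had a p under 0.05 in edgeR's quasi-likelihood test, edgeR's exact test, or DESeq2. DESeq2 gave no adjusted p for *Cnn1*. Of the 17212 genes tested, the quasi-likelihood test called 0.0407%. Among the same genes, DESeq2 called 143 higher and 15 lower, and edgeR's exact test 127 higher and 13 lower. At an unadjusted p under 0.05, edgeR's quasi-likelihood test gave 2 of the 10 genes as lower and 0 as higher, against 2.86% of all genes tested as lower, 5.77% as higher, and 8.63% in either direction. The fold change was above 0 for 4 of the 10 genes and for 51.4% of all genes tested. The groups did not overlap in CPM for 2 of the 10 genes, both lower, against 7.23% of all genes tested that were lower without overlap and 8.3% that were higher. With CPM by library size only, *Myh11* and *Tagln* overlapped as well. *Tagln* also overlapped once the counts of *Gm48529*, an opposite-strand gene that shares exonic bases with it, were added. All 10 genes passed the filter on low counts.

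Counts per gene were scaled to CPM with TMM factors. Total counts ranged from 66130887 to 72641124 per mouse, and a gene with 0 counts could be at up to 3 counts, or 0.0317 to 0.0541 CPM, by counting error alone. The share of mitochondrially encoded transcripts was lowest in WT3, at 13.8%, highest in Mut1, at 45.4%, and 29.7% to 37.3% in the other 4 mice, so that these 2 libraries stood apart and results are also given without them. The sample labels give the tissue as heart, and the methods as LV. The cardiomyocyte markers *Myh6*, *Tnnt2*, *Actc1*, *Tnni3*, *Ryr2*, *Myl2*, *Pln*, and *Myl3* summed to between 30241 and 43728 CPM, while 4 of 5 atrial genes, *Myl7*, *Sln*, *Bmp10*, and *Myl4*, were at or under 0.570 CPM in every mouse. The other, *Nppa*, which ventricles can also express, was at 37.7 to 107 CPM. *Lztr1* mRNA was measured at 23.5 ± 1.11 CPM in WT and 25.7 ± 2.03 CPM in *Lztr1* R409C/+ mice (SD, n = 3 in each group; edgeR quasi-likelihood unadjusted p = 0.413), and gene counts do not show which allele a read came from.

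**Figure D1:**
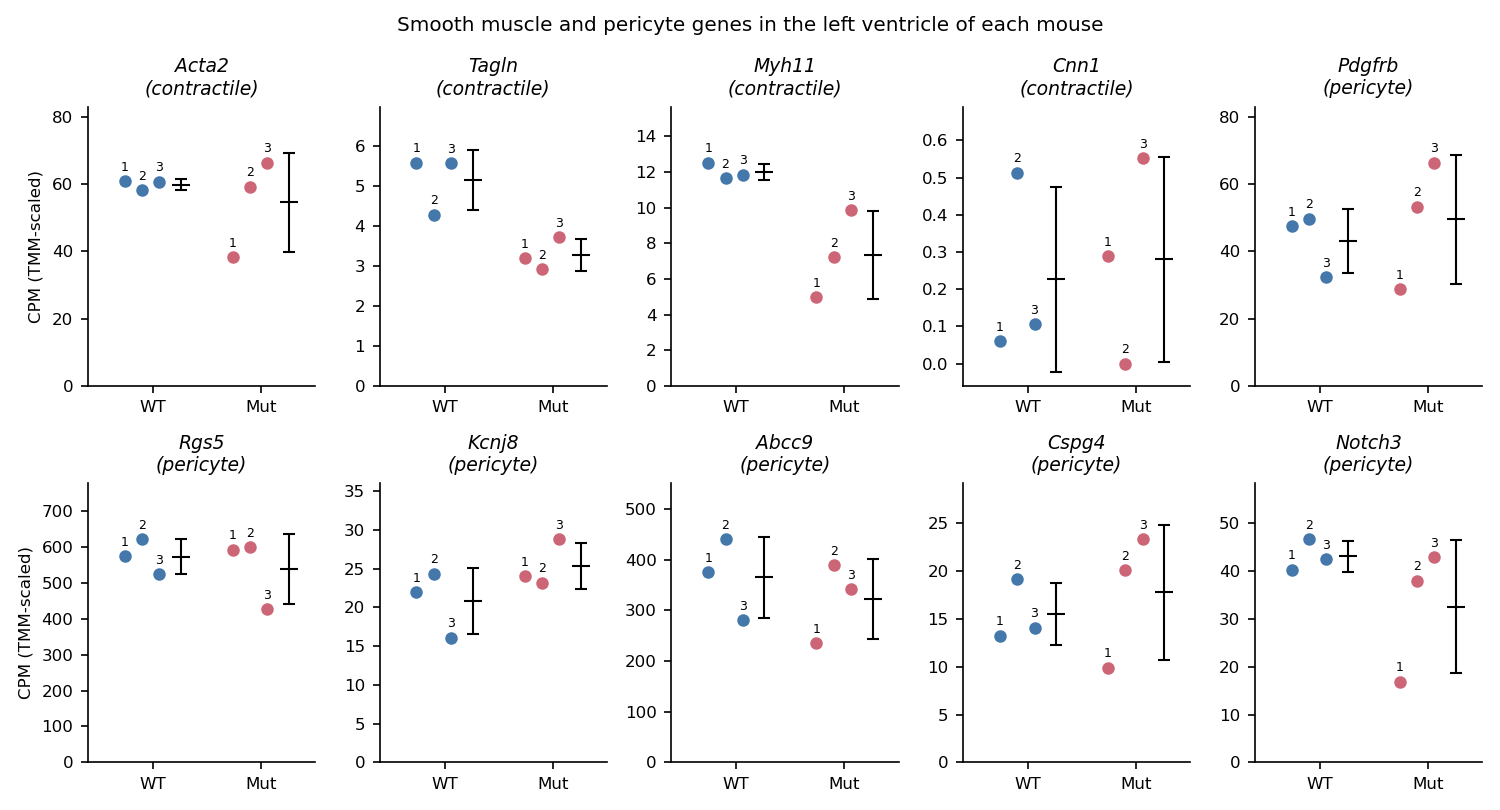
CPM (TMM-scaled, linear axes) of each of the 10 genes in the 3 WT mice (blue) and 3 mutant mice (Mut, red), with the replicate number beside each point and the mean ± SD as a black bar. *Myh11* and *Tagln* are lower in all 3 mutant mice than in all 3 WT mice, and the other 8 genes overlap. Counts are as assigned to each gene, and *Tagln* overlaps when those of the opposite-strand gene *Gm48529* are added.

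*Acta2* (ENSMUSG00000035783.10, chr19:34217737-34232990 of GRCm39, minus strand) encodes smooth muscle actin, the actin of the contractile apparatus of vascular smooth muscle. The WT mice had 60.8, 58.1, and 60.7 CPM, and the mutant mice had 38.2, 59.2, and 66.3 CPM. The WT mice lay within a coefficient of variation of 2.56%, and the mutant mice within 26.8%, with Mut1 lowest and Mut3 highest of all 6 mice. The log2 fold change was -0.13 (standard error, SE, 0.19, edgeR quasi-likelihood unadjusted p = 0.506, adjusted p = 0.889). Without Mut1 it was 0.061.

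Transcription of *Acta2* is known to depend on serum response factor, which binds CArG boxes, short elements in which A and T lie between a pair of C and a pair of G. The RefSeq promoter table, which gives 250 bases before to 50 after the start site in build GRCm38.p6, held 7 of the 10 genes and not *Tagln*, *Myh11*, or *Pdgfrb*. The 150 bases before the *Acta2* start are shown because they hold both boxes found among these genes, in capitals. By exact match, the stretch lies at chr19:34232774-34232923 of GRCm39 on the minus strand, within the bounds of the GENCODE gene.
Acta2 upstream: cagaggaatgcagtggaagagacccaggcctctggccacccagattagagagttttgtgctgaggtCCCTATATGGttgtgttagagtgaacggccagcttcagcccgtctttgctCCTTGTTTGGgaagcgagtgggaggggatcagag
The first box begins 84 bases and the second 34 bases before the start, each has 1 inner base that is neither A nor T, and they do not overlap each other. The search was for the CArG box with at most 1 such inner base, a pattern that reads the same on both strands. It was met by 10% of the 27025 windows in the table, and 0.836% held 2 or more. The windows of *Cnn1*, *Rgs5*, *Kcnj8*, *Abcc9*, *Cspg4*, and *Notch3* held no match, which says only that these letters are not in these windows.

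*Myh11* (ENSMUSG00000018830.11, chr16:14012399-14109236, minus strand) encodes the heavy chain of smooth muscle myosin, the motor that pulls on smooth muscle actin, and among the 4 contractile genes it is the one held to be most restricted to smooth muscle. Among WT mice the level was 12.5, 11.6, and 11.8 CPM, and among mutant mice 4.96, 7.20, and 9.87 CPM. Every mutant mouse was below every WT mouse. The means were 12.0 ± 0.459 and 7.34 ± 2.45 CPM (SD, n = 3 in each group; two-sided exact permutation test, p = 0.1, below which groups of 3 and 3 cannot go). The log2 fold change was -0.71 (SE 0.23, edgeR quasi-likelihood unadjusted p = 0.0104, adjusted p = 0.438). It stayed between -0.98 and -0.50 over the alternatives tried, with an unadjusted p under 0.05 in each, and without both libraries that stood apart the unadjusted p was 0.0420 by edgeR's quasi-likelihood test. With CPM by library size only, the groups overlapped, at 11.5, 10.5, and 16.5 CPM in the WT and 3.97, 7.09, and 10.8 CPM in the mutant mice.

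*Tagln* (ENSMUSG00000032085.6, chr9:45840909-45847404, minus strand) encodes transgelin, an actin-binding protein that appears early in smooth muscle differentiation. Levels of 5.57, 4.27, and 5.56 CPM in the WT mice stood against 3.19, 2.91, and 3.71 CPM in the mutant mice. Again, no mutant mouse reached the lowest WT mouse. The means were 5.13 ± 0.747 and 3.27 ± 0.407 CPM (SD, n = 3 in each group; two-sided exact permutation test, p = 0.1), with a log2 fold change of -0.65 (SE 0.23, edgeR quasi-likelihood unadjusted p = 0.0152, adjusted p = 0.470). With CPM by library size only, the groups overlapped here too, since WT2 was at 3.86 and Mut3 at 4.07 CPM. On the log2 scale the fold change was -0.59 without WT1 (edgeR quasi-likelihood unadjusted p = 0.0578), -0.58 without Mut2 (unadjusted p = 0.0521), and -0.57 without both libraries that stood apart (unadjusted p = 0.0660), so that its size was little changed.

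*Tagln* shares its locus. Of its 2044 exonic bases, 1241 are also exonic in *Gm48529*, a long noncoding RNA gene on the opposite strand, and 123 in *Pcsk7*. The library kit as named does not mark strand, so that reads from *Tagln* and *Gm48529* in the shared stretch cannot be told apart. *Gm48529* had 85, 53, and 84 counts in the WT and 130, 121, and 93 counts in the mutant mice, a log2 fold change of 0.83 (unadjusted p = 0.0389, edgeR's quasi-likelihood test). With the counts of both genes added, the locus was at 6.86, 5.10, and 6.45 CPM in the WT and 5.54, 4.60, and 4.99 CPM in the mutant mice. The groups then overlapped, and the log2 fold change was -0.28 (SE 0.21, unadjusted p = 0.203, edgeR's quasi-likelihood test). The separation of the groups thus held for the counts as assigned to *Tagln* and not for both genes added. There the fold change was smaller but still below 0.

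*Cnn1* (ENSMUSG00000001349.6, chr9:22010512-22020926, plus strand) encodes calponin, which binds actin and restrains the myosin motor. It was near the floor, with 4, 33, and 10 counts in the WT and 16, 0, and 40 counts in the mutant mice. Both groups spanned nearly the same range, and 0 counts in Mut2 allow up to 0.0420 CPM. The fitted log2 fold change was 0.32 with a standard error of 1.13, so that the uncertainty of the fitted difference was larger than a difference of the size measured for *Myh11*. Of its 2736 exonic bases, 961 are also exonic in *Elof1* on the opposite strand, a gene with 671 to 1081 counts per mouse. *Cnn1* is the 1 gene of the 10 that is not named in the authors' table of tested genes, and its identifier was taken from the GENCODE annotation.

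Within a mouse, the ratio of counts of 2 genes does not depend on the scaling between libraries. The counts of *Myh11* were 0.206, 0.200, and 0.195 of those of *Acta2* in the WT and 0.130, 0.122, and 0.149 in the mutant mice. The WT mice were close together and none overlapped with the mutant mice, with means of 0.201 ± 0.00539 and 0.134 ± 0.0139 (SD, n = 3 in each group). The difference in the mean log2 ratio, mutant minus WT, was -0.59 (two-sided exact permutation test, p = 0.1; 0.367 after Benjamini-Hochberg adjustment over the 11 ratios computed). The ratio of *Tagln* to *Acta2* was 0.0917, 0.0736, and 0.0917 in the WT and 0.0837, 0.0492, and 0.0560 in the mutant mice. Here Mut1 lay within the WT range (two-sided exact permutation test, p = 0.2). The pairs of genes for all 11 ratios were chosen after the values had been seen, which neither the permutation p nor its adjustment takes into account. Of the 11 ratios, 3 did not overlap between the genotypes and 8 did. The ratio of *Myh11* to *Rgs5* overlapped, at 0.0218, 0.0187, and 0.0226 in the WT and 0.00838, 0.0120, and 0.0232 in the mutant mice (two-sided exact permutation test, p = 0.4).

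**Figure D2:**
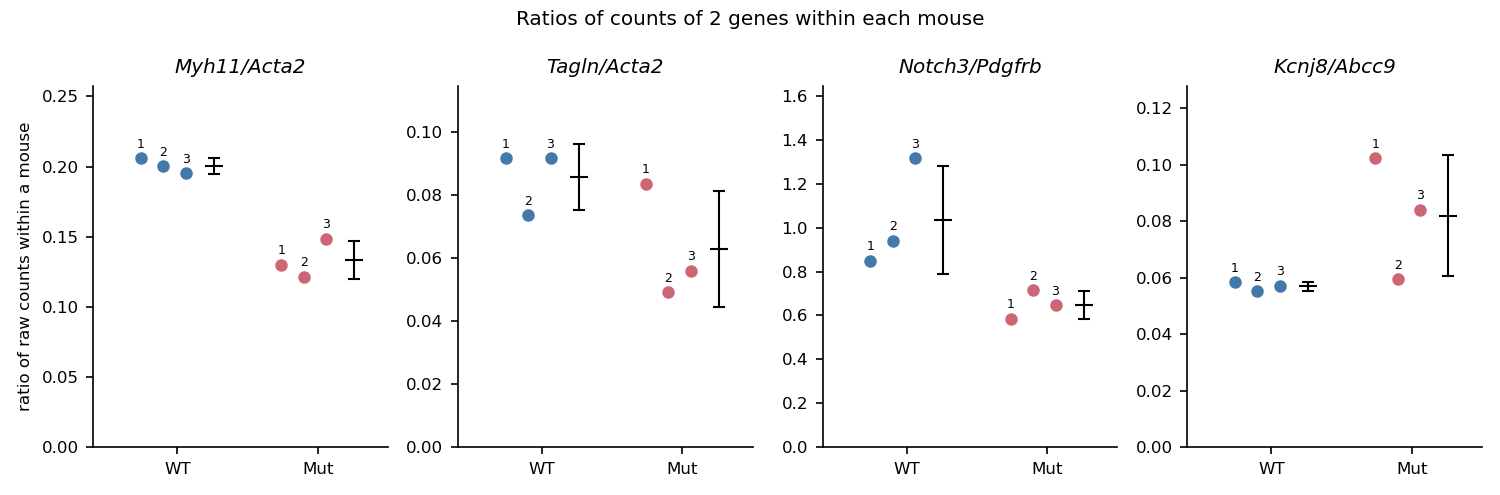
Ratio of raw counts of 2 genes within each mouse (linear axes from 0) for *Myh11* over *Acta2*, *Tagln* over *Acta2*, *Notch3* over *Pdgfrb*, and *Kcnj8* over *Abcc9*, with replicate numbers and the mean ± SD as a black bar. The ratios of *Myh11* to *Acta2* and of *Notch3* to *Pdgfrb* are lower, and that of *Kcnj8* to *Abcc9* is higher, in every mutant mouse than in every WT mouse. These are 4 of the 11 ratios computed, of which 8 overlapped between the genotypes.

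Contractile genes have close relatives in other cells, so the transcripts were compared. No stretch of 50 bases of *Acta2* occurs in *Actc1*, the cardiac actin that was measured at 8792 to 9953 CPM in WT mice, and the longest run the 2 transcripts share is 23 bases. The longest run that *Acta2* shares with a cytoplasmic actin is 56 bases with *Actg1*, and *Myh11* shares 65 bases with both nonmuscle myosin genes, *Myh9* and *Myh10*. These runs are shown because a read that lies within one could come from either gene.
Acta2 and Actg1, coding part of Acta2 exon 8, chr19:34220742-34220797, minus strand: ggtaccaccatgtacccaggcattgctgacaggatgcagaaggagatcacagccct
Myh11, Myh9, and Myh10, coding part of Myh11 exon 13, chr16:14050495-14050559, minus strand: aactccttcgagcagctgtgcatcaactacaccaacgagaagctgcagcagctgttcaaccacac
Among all possible 50-base stretches, 26 of 6500 in *Myh11* (0.4%) and 259 of 2739 in *Acta2* (9.46%, nearly all of it from *Stambpl1*, which overlaps *Acta2* on the opposite strand) occur in another gene. *Actg1* was measured at 197, 226, and 221 CPM in the WT and 230, 301, and 239 CPM in the mutant mice, higher without overlap (edgeR quasi-likelihood unadjusted p = 0.145). *Myh9* was measured at 107, 96.7, and 115 CPM in the WT and 69.9, 122, and 181 CPM in the mutant mice, with overlap. *Myh10* overlapped too, at 27.8, 25.3, and 30.0 CPM in the WT and 25.1, 31.1, and 31.8 CPM in the mutant mice.

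Among the pericyte genes, *Pdgfrb* (ENSMUSG00000024620.12, chr18:61178212-61218133, plus strand) encodes the PDGF receptor through which the endothelium recruits mural cells. The WT mice had 47.5, 49.7, and 32.3 CPM, and the mutant mice had 28.8, 53.2, and 66.3 CPM. The groups overlapped, and the lowest value of each group came from the library that stood apart in it. The log2 fold change was 0.20 (SE 0.27, edgeR quasi-likelihood unadjusted p = 0.479). It was 0.46 without Mut1 (edgeR quasi-likelihood unadjusted p = 0.0475), 0.30 without both libraries that stood apart (unadjusted p = 0.0883), and -0.071 without Mut3.

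*Cspg4* (ENSMUSG00000032911.7, chr9:56772317-56807187, plus strand) encodes a proteoglycan of the pericyte surface. Among WT mice the level was 13.3, 19.2, and 14.1 CPM, and among mutant mice 9.89, 20.1, and 23.3 CPM. As for *Pdgfrb*, Mut1 was the lowest and Mut2 and Mut3 the highest of the 6 mice. The log2 fold change was 0.20 (SE 0.28, unadjusted p = 0.484), by edgeR's quasi-likelihood test. Without Mut1 it was 0.48 (edgeR quasi-likelihood unadjusted p = 0.0397), without both libraries that stood apart 0.42 (unadjusted p = 0.0780), and without Mut3 -0.045.

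*Notch3* (ENSMUSG00000038146.9, chr17:32339794-32385893, minus strand) encodes a Notch receptor of mural cells, which receives Jagged and Delta-like ligands from the endothelium and is needed for arterial smooth muscle to mature. Levels of 40.3, 46.7, and 42.4 CPM in the WT mice stood against 16.9, 38.0, and 42.9 CPM in the mutant mice. Mut1 was well below the other 5 mice, and Mut3 lay within the WT range. The log2 fold change was -0.40 (SE 0.27, unadjusted p = 0.169), by edgeR's quasi-likelihood test. It ran from -0.10 without Mut1 (unadjusted p = 0.534) to -0.65 without Mut3 (unadjusted p = 0.0460), and was -0.60 with the GC content correction (unadjusted p = 0.0237), by the same edgeR test. That correction moved the median over all genes to -0.065 and raised the genes lower at an unadjusted p under 0.05 from 493 to 1133. The counts of *Notch3* were 0.848, 0.940, and 1.32 times those of *Pdgfrb* in the WT and 0.585, 0.714, and 0.647 in the mutant mice. The ratio of *Notch3* to *Rgs5* overlapped, at 0.0702, 0.0751, and 0.0809 in the WT and 0.0285, 0.0635, and 0.101 in the mutant mice (two-sided exact permutation test, p = 0.7). The ratio to *Pdgfrb* did not overlap between the genotypes, with a difference of -0.65 in the mean log2 ratio (two-sided exact permutation test, p = 0.1, and 0.367 after adjustment over the 11 ratios). This pair, too, was chosen after the values had been seen, which the permutation p and its adjustment do not take into account.

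*Rgs5* (ENSMUSG00000026678.11, chr1:169483036-169524887, plus strand) encodes a protein that shortens G protein signaling and is a common marker of pericytes. The WT mice had 574, 621, and 524 CPM, and the mutant mice had 592, 599, and 426 CPM. The means were 573.2 ± 48.4 and 539.0 ± 98.0 CPM (SD, n = 3 in each group), with the lowest value in the mutant mouse that had the highest *Pdgfrb*. The log2 fold change was -0.089 (SE 0.18, edgeR quasi-likelihood unadjusted p = 0.631). It changed direction without that mouse, Mut3, to 0.055. It was -0.17 without Mut1, -0.18 without Mut2, and -0.22 without both libraries that stood apart.

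*Kcnj8* (ENSMUSG00000030247.10, chr6:142510563-142517830, minus strand) and *Abcc9* (ENSMUSG00000030249.16, chr6:142533588-142648571, minus strand) are neighbours that encode the pore and the regulatory subunit of the ATP-sensitive potassium channel of mural cells, which relaxes vessels when it opens. *Abcc9* also serves in the channel of cardiomyocytes, whose pore is encoded by *Kcnj11*, so it does not mark mural cells alone in the heart. *Kcnj8* was measured at 22.0, 24.3, and 16.1 CPM in the WT and 24.0, 23.2, and 28.8 CPM in the mutant mice. The groups overlapped, with the lowest value in WT3 (log2 fold change 0.29, SE 0.19, edgeR quasi-likelihood unadjusted p = 0.150). Without WT3 the log2 fold change of *Kcnj8* was 0.13. *Abcc9* was measured at 376, 440, and 281 CPM in the WT and 235, 389, and 342 CPM in the mutant mice, in the same order. Its log2 fold change was -0.18 (SE 0.22, edgeR quasi-likelihood unadjusted p = 0.421), also with overlap. For *Abcc9* it was -0.0076 without Mut1 and -0.35 without Mut2.

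The counts of *Kcnj8* were 0.0585, 0.0553, and 0.0571 of those of *Abcc9* in the WT and 0.102, 0.0595, and 0.0841 in the mutant mice. The WT mice hardly differed, and every mutant mouse was above them, though Mut2 by little. The mean log2 ratio was higher by 0.49 in mutant mice (two-sided exact permutation test, p = 0.1; 0.367 after adjustment over the 11 ratios). As with the other ratios, this pair was chosen after the values had been seen, which the permutation p and its adjustment do not take into account. The ratio of *Kcnj8* to *Rgs5* overlapped (two-sided exact permutation test, p = 0.2). It was 0.0383, 0.0392, and 0.0306 in the WT and 0.0406, 0.0387, and 0.0675 in the mutant mice. *Kcnj11* was measured at 117, 114, and 89.6 CPM in the WT and 95.2, 111, and 117 CPM in the mutant mice, with overlap and a log2 fold change of 0.012 (unadjusted p = 0.944, edgeR's quasi-likelihood test). For *Abcc8*, the other regulatory subunit gene, the log2 fold change was -0.11 (edgeR quasi-likelihood unadjusted p = 0.612).

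**Figure D3:**
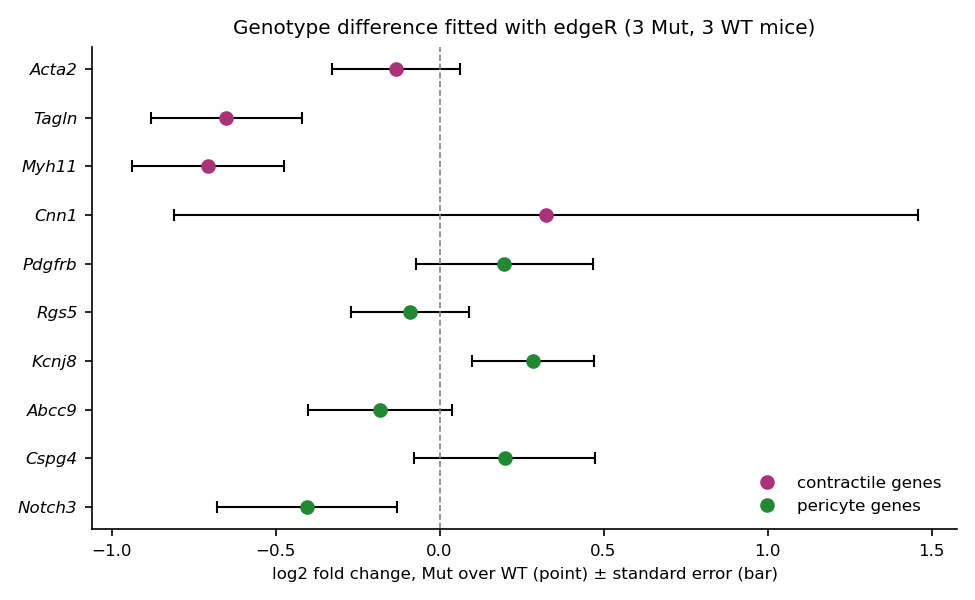
Log2 fold change of *Lztr1* R409C/+ (Mut) over WT mice for the 10 genes from edgeR's quasi-likelihood fit, with bars of 1 standard error, contractile genes in purple and pericyte genes in green. *Myh11* and *Tagln* lie lowest, at -0.71 and -0.65, the 6 pericyte genes lie between -0.40 and 0.29, and *Cnn1* has the widest bar.

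Levels were compared between genes after division by exonic length. In WT mice, *Rgs5* was highest at 93.2 ± 7.88 CPM per kilobase (SD, n = 3), followed by *Abcc9* at 31.5 ± 6.90 and *Acta2* at 18.5 ± 0.474. *Kcnj8* at 5.52 ± 1.13, *Pdgfrb* at 5.33 ± 1.17, and *Notch3* at 4.79 ± 0.359 CPM per kilobase came next, and neighbours among these 3 overlapped over the WT mice. *Tagln* followed at 2.51 ± 0.365, then *Myh11* at 1.58 ± 0.0604 and *Cspg4* at 1.297 ± 0.268, of which the last 2 overlapped. *Cnn1* was lowest at 0.0827 ± 0.0910 CPM per kilobase. On this scale the contractile genes ranged from above every pericyte gene but *Rgs5* and *Abcc9* to the bottom of the order.

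The mean level per mouse was taken as the mean over genes of log2 CPM, each gene centred on its own average across all 6 mice. For *Acta2*, *Tagln*, and *Myh11* it was 0.33, 0.15, and 0.30 in the WT and -0.59, -0.25, and 0.067 in the mutant mice. These did not overlap, and *Cnn1* was left out after its counts had been seen. With *Cnn1* the groups overlapped, at 0.042, 0.39, and 0.11 in the WT and -0.33, -0.56, and 0.35 in the mutant mice. For the 6 pericyte genes it was 0.026, 0.24, and -0.21 in the WT and -0.46, 0.17, and 0.23 in the mutant mice, with overlap. In both groups of genes, Mut1 was lower than Mut2 and Mut3 when *Cnn1* was left out, and this mouse also had the lowest value of all 6 mice for *Acta2*, *Myh11*, *Pdgfrb*, *Abcc9*, *Cspg4*, and *Notch3*. It was not lowest for *Rgs5*, *Kcnj8*, or *Tagln*. The median log2 fold change was -0.39 over the 4 contractile genes and 0.054 over the 6 pericyte genes, beside 0.012 over all genes tested. With each mouse left out, the contractile median lay between -0.71 (without Mut3) and -0.22 (without Mut1), and it was -0.20 with the counts of overlapping opposite-strand genes added. The pericyte median lay between -0.063 (without WT3) and 0.15 (without Mut1) and was also below 0 without Mut2 (-0.042) or Mut3 (-0.058), so it had no stable sign. Over the 6 mice, the share of mitochondrially encoded counts had a Pearson's r with log2 CPM of -0.60 for *Acta2*, -0.55 for *Tagln*, -0.58 for *Myh11*, and -0.57 for *Notch3*, given as a description. For the other pericyte genes r ranged from -0.25 for *Cspg4* over 0.029 for *Pdgfrb* and 0.062 for *Abcc9* to 0.48 for *Rgs5* and 0.66 for *Kcnj8*. WT3, with the lowest share, and Mut1, with the highest, each had the lowest pericyte mean of their group. The part of this share in the values was not tested.

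How the genes varied together over the 6 mice is given as a description only, since the mice share 2 genotypes and 2 libraries that stood apart. The closest pair was *Acta2* and *Notch3* (Pearson's r of log2 CPM = 0.956), followed by *Pdgfrb* and *Cspg4* (0.890), *Myh11* and *Notch3* (0.879), and *Tagln* and *Myh11* (0.825). *Rgs5* correlated negatively with *Acta2* (-0.460), *Cspg4* (-0.416), and *Pdgfrb* (-0.397), although it is used to mark the same cells as the last 2. Between *Notch3* and *Pdgfrb* r was 0.656. A mean of at least 1 CPM was reached by 13215 tested genes, vessel wall genes included. Among the others, those closest to the mean level of *Acta2*, *Tagln*, and *Myh11* were *Aars2* (r = 0.992), *Cul9* (0.990), and *Spg20* (0.988). Those closest to the pericyte genes were *Prrc2b* (0.995), *Fblim1* (0.993), and *Ets2* (0.992). With 6 mice, 45 and 61 genes reached an r of 0.95 with the respective means.

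Of 16 further genes of smooth muscle contraction, 15 were tested, 9 with a fold change above 0 and 6 below, with a median log2 fold change of 0.080. By edgeR's quasi-likelihood test, edgeR's exact test, and DESeq2 alike, 0 had an unadjusted p under 0.05, and the same holds for the lists of pericyte genes, regulators, Notch genes, and PDGF genes that follow. *Mylk*, the kinase that starts smooth muscle contraction by phosphorylating myosin light chains, was measured at 18.5, 16.7, and 16.3 CPM in the WT and 14.5, 17.8, and 22.2 CPM in the mutant mice. The regulatory light chain gene *Myl9* was at 5.46, 4.07, and 4.45 CPM in the WT and 3.75, 4.94, and 6.62 CPM in the mutant mice, also with overlap. The smallest unadjusted p belonged to *Synpo2*, with a log2 fold change of -0.23 (unadjusted p = 0.157), and *Ntrk3*, with 0.69 (unadjusted p = 0.176) by edgeR's quasi-likelihood test. *Ntrk3*, a neurotrophin receptor gene at under 1 CPM, was the 1 tested gene of this list without overlap, at 0.515, 0.357, and 0.391 CPM in the WT and 0.866, 0.517, and 0.662 CPM in the mutant mice. Over all genes tested, 8.3% were higher without overlap. Several genes of this list, such as *Des*, *Smtn*, and *Synpo2*, are also used by cardiomyocytes. *Actg2*, the enteric smooth muscle actin, did not pass the filter on low counts. It was at 0.121, 0.528, and 0.422 CPM in the WT and 0.0722, 0.112, and 0 CPM in the mutant mice, and was singled out here after its values had been seen.

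All 12 further pericyte genes were tested, 8 with a fold change above 0 and 4 below, with a median log2 fold change of 0.19 and 0 at an unadjusted p under 0.05 by edgeR's quasi-likelihood test. *P2ry14*, a receptor for nucleotide sugars, had the smallest unadjusted p (log2 fold change 0.48, unadjusted p = 0.133), followed by *Mcam*, an adhesion molecule of mural cells and endothelium (0.33, unadjusted p = 0.166), by edgeR's quasi-likelihood test. *Vtn*, which encodes vitronectin, was at 16.1, 17.6, and 12.9 CPM in the WT and 11.1, 22.4, and 24.6 CPM in the mutant mice, the same order of mice within the mutant group as for *Pdgfrb* and *Cspg4*. That order was not particular to pericyte genes, since *Acta2*, *Myh11*, and the cardiomyocyte gene *Myh6* had it too.

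**Figure D4:**
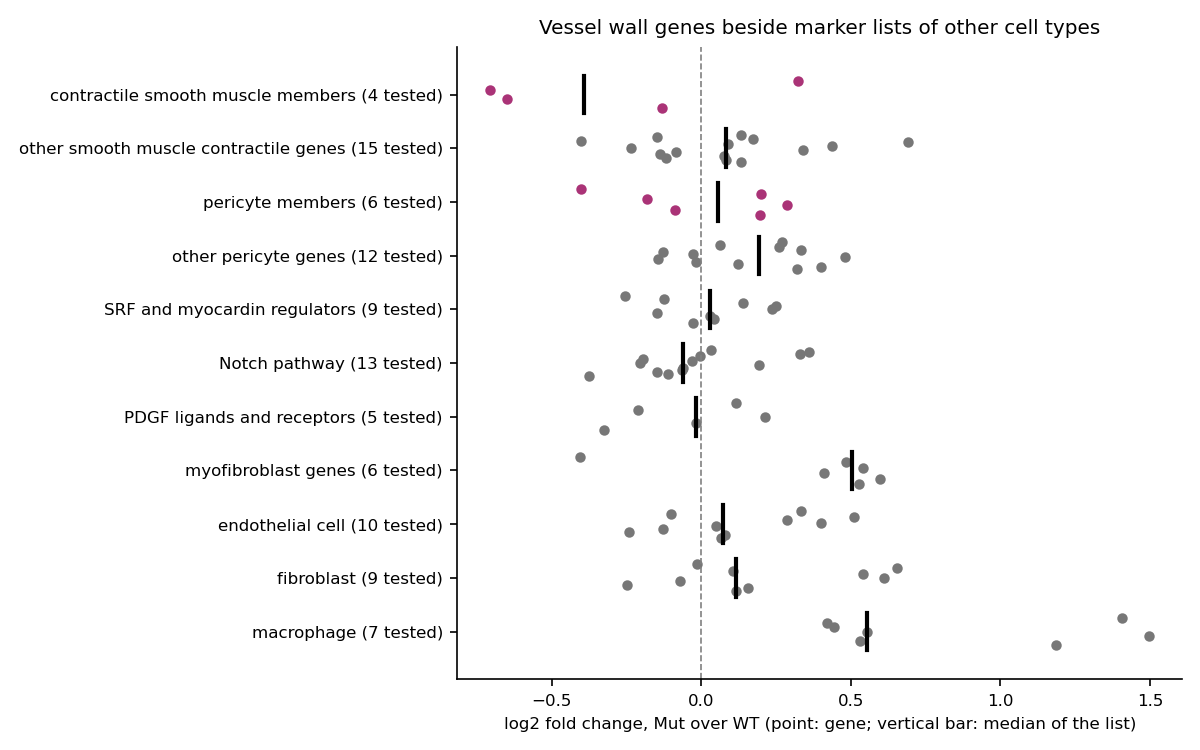
Log2 fold change of *Lztr1* R409C/+ (Mut) over WT mice for each tested gene (point) of the 10 genes (purple) and of other gene and marker lists (grey), with the median of each list as a vertical bar. The median of the contractile genes is -0.39 and that of 15 other smooth muscle genes is 0.080, while that of the macrophage markers is 0.55.

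Upstream of the contractile genes stand serum response factor (*Srf*) and its coactivator myocardin (*Myocd*). Of 9 regulators of this kind, 5 had a fold change above 0 and 4 below, with a median of 0.028 and 0 at an unadjusted p under 0.05 by edgeR's quasi-likelihood test. *Srf* was measured at 79.7, 73.9, and 65.1 CPM in the WT and 69.7, 65.9, and 79.1 CPM in the mutant mice. *Myocd* was at 42.8, 48.7, and 30.7 CPM in the WT and 40.6, 45.0, and 40.3 CPM in the mutant mice. Both overlapped, and both are also expressed by cardiomyocytes. *Gata6* and *Elk1* had the smallest unadjusted p, with log2 fold changes of -0.26 (unadjusted p = 0.234) and 0.25 (unadjusted p = 0.248), by edgeR's quasi-likelihood test.

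Of 13 other genes of the Notch pathway, 4 had a fold change above 0 and 9 below, with a median of -0.063 and 0 at an unadjusted p under 0.05 by edgeR's quasi-likelihood test. *Jag1*, a ligand of NOTCH3, was the 1 gene of the 13 without overlap, against 7.23% of all genes tested that were lower without overlap. It was at 14.2, 12.0, and 16.8 CPM in the WT and 11.5, 11.7, and 9.87 CPM in the mutant mice (log2 fold change -0.38, SE 0.18, edgeR quasi-likelihood unadjusted p = 0.0590). *Heyl*, a target of NOTCH3, was at 21.1, 22.7, and 13.4 CPM in the WT and 17.3, 26.0, and 28.4 CPM in the mutant mice, with overlap. Among the mutant mice it had the order of *Pdgfrb*, which *Acta2* and *Myh6* shared. *Hes1*, another Notch target, had the second smallest unadjusted p, with a log2 fold change of 0.36 (unadjusted p = 0.143, edgeR's quasi-likelihood test). Of the PDGF genes, *Pdgfb*, the endothelial ligand of PDGFRB, was at 36.7, 29.7, and 39.8 CPM in the WT and 24.0, 41.3, and 39.5 CPM in the mutant mice, with overlap. None of the 5 PDGF genes had an unadjusted p under 0.05 by edgeR's quasi-likelihood test. The smallest belonged to *Pdgfa* (log2 fold change -0.33, unadjusted p = 0.111) and *Pdgfd* (-0.21, unadjusted p = 0.335).

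Paralogs of these genes are used by other cells. Of 11 such genes, 10 related to the contractile genes and *Rgs4*, related to *Rgs5* and also among the further pericyte genes, 2 were higher and 1 lower at an unadjusted p under 0.05 by edgeR's quasi-likelihood test. *Tagln2*, the transgelin of leukocytes and endothelium, was at 34.7, 33.6, and 24.4 CPM in the WT and 36.5, 48.3, and 64.3 CPM in the mutant mice. It was higher in every mutant mouse, opposite to *Tagln* (log2 fold change 0.69, SE 0.22, edgeR quasi-likelihood unadjusted p = 0.00781, adjusted p = 0.398). *Actb*, the cytoplasmic actin, had a log2 fold change of 0.43 (unadjusted p = 0.0305), and *Acta1*, the skeletal muscle actin that cardiomyocytes can express, of -0.58 (unadjusted p = 0.0172), by edgeR's quasi-likelihood test.

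Markers of other cells were measured beside these genes. The 7 macrophage markers (*Cd68*, *Csf1r*, *C1qa*, *Adgre1*, *Cd163*, *Mrc1*, and *Fcgr1*) all had a fold change above 0, with a median on the log2 scale of 0.55, and their summed level was 105 to 119 CPM in WT and 170 to 180.2 CPM in *Lztr1* R409C/+ mice. Of these, 6 had an unadjusted p under 0.05 in edgeR's quasi-likelihood test. After adjustment 0 passed in that test and 2, *C1qa* and *Fcgr1*, in both DESeq2 and edgeR's exact test. The 10 endothelial markers summed to 827 to 1091 CPM in WT and 761 to 1263 CPM in *Lztr1* R409C/+ mice, with *Emcn* as the 1 gene at an unadjusted p under 0.05. The 9 fibroblast markers summed to 1338 to 1672 CPM in WT and 1227 to 1736 CPM in *Lztr1* R409C/+ mice, with 6 fold changes above 0, 3 below (*Col1a1*, *Col1a2*, and *Gsn*, at -0.25, -0.073, and -0.013), and a median on the log2 scale of 0.12. *Lum*, *Dpt*, and *Tcf21* were higher at an unadjusted p under 0.05 by edgeR's quasi-likelihood test. Of 7 myofibroblast genes, a state in which fibroblasts also express *Acta2*, 6 were tested with a median log2 fold change of 0.51. *Meox1* (0.60, unadjusted p = 0.0163), *Col8a1* (0.54, unadjusted p = 0.0321), and *Postn* (0.53, unadjusted p = 0.0342) had unadjusted p under 0.05 by edgeR's quasi-likelihood test, with adjusted p between 0.471 and 0.551, and *Col8a1* and *Postn* overlapped between the groups. *Ccn2* had a log2 fold change of -0.41 (edgeR quasi-likelihood unadjusted p = 0.0641). The 8 cardiomyocyte markers summed to 39523 to 43728 CPM in WT and 30241 to 42594 CPM in *Lztr1* R409C/+ mice, lowest in Mut1. The 5 erythrocyte genes summed to 579 to 1479 CPM in WT and 1042 to 2625 CPM in *Lztr1* R409C/+ mice, highest in Mut1. All 5 had a fold change above 0, with a median on the log2 scale of 0.97, and *Alas2*, *Hba-a1*, and *Hba-a2* had an unadjusted p under 0.05 by edgeR's quasi-likelihood test, against 5 of 5 by edgeR's exact test and 2 by DESeq2. After adjustment, 0 erythrocyte genes passed in edgeR's quasi-likelihood or exact test and 1, *Hba-a1*, in DESeq2. The 4 epicardial genes were low, summing to 4.52 to 5.77 CPM in WT and 5.52 to 9.11 CPM in *Lztr1* R409C/+ mice, with a median log2 fold change of 1.65. *Upk3b* was higher in every mutant mouse (2.15, edgeR quasi-likelihood unadjusted p = 0.00177, adjusted p = 0.251) and passed adjustment in DESeq2 and edgeR's exact test. *Msln* had a log2 fold change of 1.58 (edgeR quasi-likelihood unadjusted p = 0.0294), and *Wt1*, the most abundant of the list, of -0.18 (unadjusted p = 0.449). No marker of any list was at 0 counts in all 6 mice, and the part of these cell types in the values of the vessel wall genes was not tested.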

How the data were processed

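RNA from the LVs of 3 WT and 3 *Lztr1* R409C/+ mice was sequenced with 1 library per mouse. The authors trimmed reads with Trim Galore, aligned them to GRCm39 with HISAT2, excluded rRNA, and deposited StringTie counts per gene as whole numbers without normalization. Versions are not given in the sources used here. Their table of an edgeR comparison was read for gene names only. It named 9 of the 10 genes, and GENCODE M39 named *Cnn1*. Its fold changes and p-values were not used.

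Counts were filtered with filterByExpr (17212 genes), normalized with TMM, and compared with edgeR's robust quasi-likelihood test (edgeR 4.0.16, R 4.3.3), two-sided, with Benjamini-Hochberg adjustment over all genes tested at 0.05. The standard error was taken as the absolute log2 fold change divided by the square root of F. Single values were compared with an exact permutation test. Scores used log2(CPM + 0.1). Other scalings, filters, tests (DESeq2 1.42.0), a replicate block, loess corrections for exonic length and GC content, and the omission of mice were tried. The analysis was tested on simulated data. The rule for named genes was the 10 genes, in each other gene list those past the adjusted threshold and the 2 with the smallest unadjusted p, the 3 genes closest to each group mean, and paralogs that share sequence. *Mylk*, *Myl9*, *Vtn*, *Srf*, *Myocd*, *Heyl*, *Pdgfb*, *Actg2*, *Actb*, *Postn*, *Ccn2*, and several cell type markers were added after their values had been seen. The litter and batch of each sequenced mouse are not given in the sources used here. Members and lists were chosen with earlier results of these data known. Deviations from the group means did not pair the replicate numbers, which cannot show whether same-numbered mice shared a litter or batch.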

Additional observations from a re-analysis of the deposited data

How the results depend on the processing

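By edgeR's quasi-likelihood test, 6 genes were called higher and 1 lower. These counts moved to 15 and 6 with library size only, 143 and 15 with DESeq2's Wald test, and 127 and 13 with edgeR's exact test. The higher calls moved to 19 without a filter on low counts, 0 with the replicate block, 1 with the gene length correction, and 0 without WT3 and Mut1 together. The lower calls moved to 0 with at least 10 counts in every mouse and to 2 with the GC content correction. With each mouse left out, 1 to 3 genes were higher and 1 to 2 lower. None of the alternatives called any of the 10 vessel wall genes. 2 of them were lower at an unadjusted p under 0.05, a number that lay between 1 and 3 with each mouse left out and was 1 without WT3 and Mut1 together or with the counts of the overlapping opposite-strand gene added, an alternative chosen after seeing the data. It was 3, with *Notch3* as the third, with the GC content correction and without Mut3. The GC content correction also raised the genes lower at an unadjusted p under 0.05 from 493 of 17212 to 1133 of 17127 over all genes and moved their median log2 fold change to -0.065. The number of higher ones lay between 0 and 2 with each mouse left out, and the 2 were *Pdgfrb* and *Cspg4* without Mut1.

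Over the fits that left out 1 mouse, the log2 fold change lay between -0.30 and 0.061 for *Acta2*, -0.67 and 1.71 for *Cnn1*, -0.071 and 0.46 for *Pdgfrb*, -0.18 and 0.055 for *Rgs5*, and -0.045 and 0.48 for *Cspg4*, so that each changed direction. Without WT3 and Mut1 together it was 0.078 for *Acta2*, -0.050 for *Cnn1*, and -0.22 for *Rgs5*. In that fit *Notch3* was at -0.10, *Kcnj8* at 0.17, and *Abcc9* at -0.16. The sign was kept under every alternative by *Myh11* (-0.98 to -0.50), *Tagln* (-0.82 to -0.28), *Kcnj8* (0.13 to 0.41), *Notch3* (-0.65 to -0.10), and *Abcc9* (-0.35 to -0.0076, the last without Mut1, where it was near 0). The contractile median was -0.64 with at least 10 counts in every mouse, which leaves *Cnn1* out. The pericyte median was -0.066 with library size only and -0.057 with the GC content correction. Adjusted p-values lay between 0.172 and 0.976 for *Myh11* and between 0.261 and 0.976 for *Tagln*. Library size only moved the median over all genes tested to -0.14, so that fold changes on that scale are read against it, and it moved the mean CPM in WT to 64.2 for *Acta2* and 12.8 for *Myh11*. With the replicate block, the quasi-likelihood test called 0 genes higher and 1 lower. The same-numbered mice gave correlations of deviations from the group means of -0.0083, 0.036, and -0.070. Mice with different numbers gave -0.061 to 0.060. With 3 mice per group, this cannot show whether same-numbered mice shared a litter or batch. For *Cnn1*, low counts and the spread between mice limited the comparison.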
